A study of Mus musculus with 6 samples.

Results

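The genes described are 38 targets and regulators of p53, taken by symbol from a list of genes that p53 switches on in the DNA damage response together with the p53 gene Trp53 and its regulators, out of 40842 named genes. Their RNA was measured by polyA sequencing in whole lung of wild-type female C57BL/6N mice, in 3 libraries (irradiated 1 to 3) of mice given 20 Gy of 9 MeV electrons at once and labelled 100 days, and in 3 libraries (control 1 to 3) of untreated mice with the same time label. The title of the series concerns radiation pneumonitis, the inflammation of the lung after irradiation, and the comparison asks what differs in exposed lung at this late time. Neither the exposed region of the body nor the number of mice behind each group is labelled, and p-values here cover the spread of these 6 libraries only, which may be technical. Levels are FPKM, fragment numbers scaled to transcript length and library size, as the authors deposited them, so levels of different genes can be set side by side.

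The transcription factor p53 is held at a low level by the ubiquitin ligase Mdm2, with help from Mdm4. DNA breaks activate kinases that release p53 from this control, and p53 then switches on genes that stop the cell cycle, start cell death, repair DNA and, through Mdm2 and the phosphatase Ppm1d, switch p53 off again. Much of this control acts on the p53 protein rather than on its RNA. In lung, p53 is active within hours of irradiation, and p21, the product of its target Cdkn1a, is also a marker of senescent cells, which have left the cell cycle for good.

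p53 binds a pair of 10-base half-sites, and the short sequences that hold such matches are shown because they are what the promoters of several members have in common. In RefSeq promoter windows of 300 bases (250 before and 50 after an annotated start, GRCm38.p6), 30 of the 38 members had a window. A window was searched on both strands, which read alike because the p53 half-site consensus is its own reverse complement. A full site was taken as 2 half-sites at most 1 base apart with at most 2 mismatches outside the 4 central letters of each. Full sites were found in the windows of 3 of 30 members (10.0%) and of 0.377% of all 27025 genes with a window. At least 1 half-site without mismatch was present for 13 of 30 members (43.3%) and for 9.55% of all genes. Some genes had more than 1 window (40 windows for the 30 members), and a match in any of them counted. The list was drawn up from known p53 targets, for some of which such sites are part of the evidence, so these shares describe the list. The windows of these 3 members hold 4 full sites, 2 of them in Gtse1, which are given 5′ to 3′ on the gene's strand, with the half-sites in capitals.
Cdkn1a, chr17:29090923-29090952, + strand: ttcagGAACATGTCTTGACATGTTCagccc
Gtse1, chr15:85859940-85859969, + strand: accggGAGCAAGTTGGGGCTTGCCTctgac
Gtse1, chr15:85859951-85859980, + strand: gttgGGGCTTGCCTcTGACTTGCCTaattc
Bax, chr7:45467074-45467103, - strand: tcccAGGCAAGCTTtGAACTTGCGGcaatt
The Cdkn1a site and the first Gtse1 site each have 1 mismatch and no spacer and begin 51 bases and 1 base before an annotated start. Both genes also have a window at another start, which held no match. The other Gtse1 site shares a half-site with the first, has 1 mismatch and a spacer of 1 base, and begins 9 bases after the same start. The Bax site has 2 mismatches and a spacer of 1 base and begins 201 bases before the start. Single half-sites are shown for the other members with a match whose irradiated libraries all lay above the controls, in the same layout.
Ccng1, chr11:40755452-40755481, - strand: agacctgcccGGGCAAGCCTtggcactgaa
Mdm2, chr10:117710925-117710954, - strand: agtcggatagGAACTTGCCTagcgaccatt
Aen, chr7:78895927-78895956, + strand: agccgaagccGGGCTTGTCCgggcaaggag
Polk, chr13:96519399-96519428, - strand: catgtagcttGAACTAGCCTcaaacttatt
Ddit4l, chr3:137623572-137623601, + strand: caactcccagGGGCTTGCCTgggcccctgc
Ppm1d, chr11:85311112-85311141, + strand: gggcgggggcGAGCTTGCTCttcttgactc
Of the 13 members with a half-site in the window, 9 had all 3 irradiated libraries above all 3 controls, and of the 17 members whose window had none, 8 did. Over all genes tested, with or without a half-site, the share was 9.91%, and it was not computed for genes with a half-site. Of the 13, Trp53 lay below its controls and Ei24, Gadd45a and Sesn1 overlapped, and their half-sites are not shown. The median log2 changes of members with and without a half-site were 0.48 and 0.25, and whether the sites bear on the changes was not tested. A match describes the letters in this window, and a window without one says only that these letters are not in it.

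All 38 members were detected in every library and reached the mean of 1 FPKM that was required for testing. Gtse1, Eda2r, Gdf15 and Pidd1 reached it only through the irradiated group. In irradiated lung Psrc1 and Trp53inp1 rose, the 2 of 38 members that passed an adjusted p of 0.05 with limma, against 0.0647% of the 13908 genes tested that were called higher. No member was called lower, against 0.115% of all genes, and at an unadjusted p under 0.05 with limma 18 members were higher and 1, Fdxr, was lower, against 7.41% and 10.3% of all genes. A looser threshold of 0.1 on the adjusted p took 11 members, all of them higher (all genes called higher at that threshold: 1.06%). Those were Psrc1, Trp53inp1, Gdf15, Ccng1, Cdkn1a, Phlda3, Mdm2, Zmat3, Eda2r, Ephx1 and Sesn2. All 3 irradiated libraries lay above all 3 controls for 21 of the 38 members (55.3%), against 9.91% of all genes tested. The reverse order was seen for 2 members (5.26%), Trp53 and Fdxr, against 14.6% of all genes. Among the 34 members with a control mean of at least 1 FPKM, 18 had the irradiated libraries above the controls, against 9.31% of genes with such a mean. An irradiated mean of at least 2 times the control mean was found for 9 members (23.7%), against 3.08% of all genes, and for 6 of the 34 with a control mean of at least 1 FPKM, against 2.11% of genes with such a mean. No member's irradiated mean was at most 0.5 times the control mean, against 1.15% of all genes. Over the members the median log2 change (irradiated minus control, from log2(FPKM + 1), so that changes of genes near 1 FPKM come out too small) was 0.35, and over all genes tested it was −0.03. With 3 libraries against 3, an exact permutation test of a single gene cannot give a two-sided p below 0.1.

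**Figure D1:**
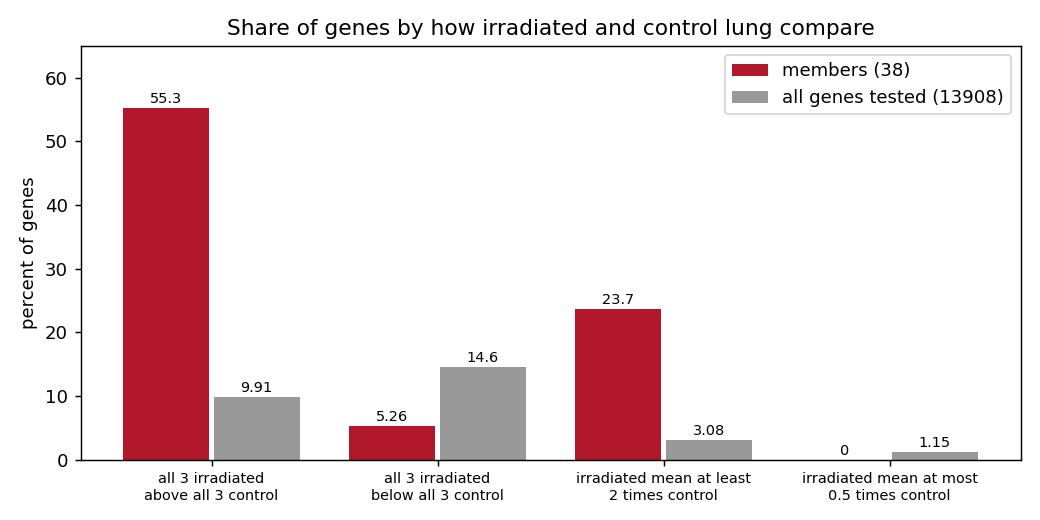
Percent of genes (y axis) in which the irradiated and control libraries stand in the relation named under each pair of bars, for the 38 members (red) and all 13908 genes tested (grey). All 3 irradiated libraries lay above all 3 controls in 55.3% of members and 9.91% of all genes.

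**Figure D2:**
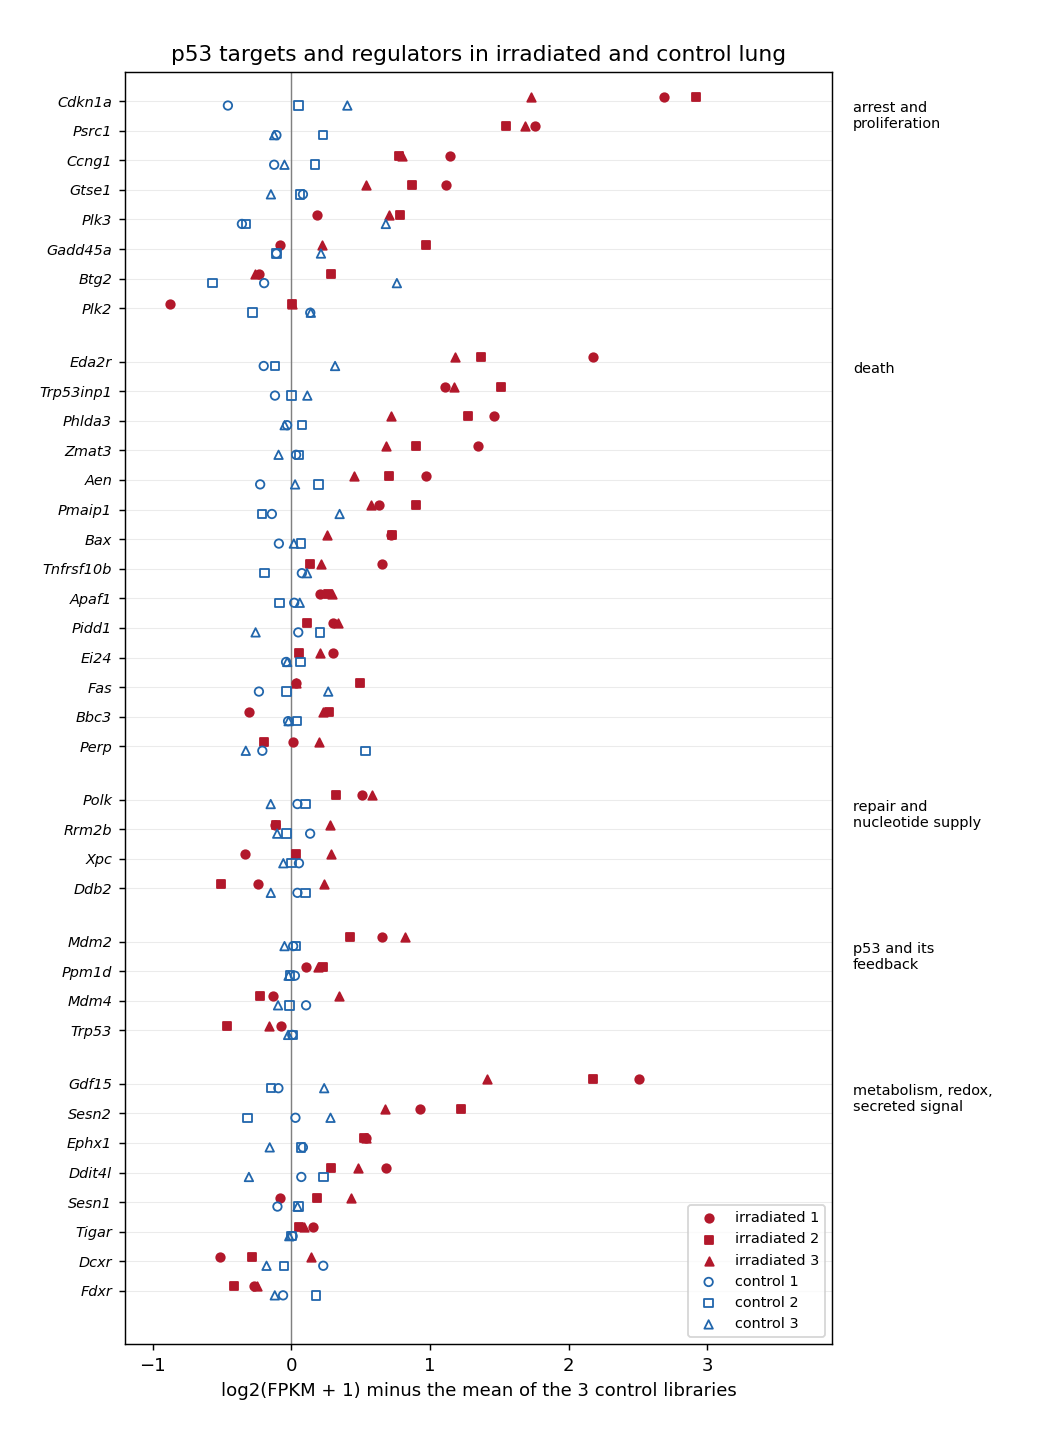
Each member's log2(FPKM + 1) in every library, as the difference from the mean of the 3 controls (x axis), with members grouped by role; filled red symbols are irradiated and open blue symbols control libraries, and circle, square and triangle are replicates 1, 2 and 3. Cdkn1a, Gdf15, Eda2r, Psrc1, Trp53inp1 and Phlda3 stand farthest to the right of their controls, while the repair genes other than Polk lie around 0.

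The genes of cell cycle arrest and proliferation divided into 4 members with separate groups, all above the controls, and 4 with overlapping groups. Of all genes tested, 9.91% had all irradiated libraries above the controls and 14.6% had them below. Gtse1, counted among the separate members, reached the mean required for testing only through the irradiated group. Psrc1, a microtubule-associated protein of the mitotic spindle that p53 activates, was at 5.89, 4.96 and 5.57 FPKM in irradiated 1 to 3, against 0.893, 1.39 and 0.872 FPKM in control 1 to 3. Its irradiated libraries lay close together and its mean was 5.20 times the control mean (log2 change 1.66 ± 0.14, SE; limma adjusted p = 0.0298). Psrc1 lies on chromosome 3 at 108291120 to 108295547 (GRCm39, coordinates of the files). Among all genes tested its level rose to the 37.1 percentile in irradiated lung, against the 2.37 percentile in control lung.

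Cdkn1a encodes p21, the inhibitor of cyclin-dependent kinases through which p53 stops the cycle. It was at 158, 186 and 80.9 FPKM in irradiated 1 to 3, against 17.0, 24.6 and 31.7 FPKM in control 1 to 3. Every irradiated library lay above every control, and irradiated 3 was well below the other irradiated libraries. The mean was 5.80 times the control mean, with a log2 change of 2.45 ± 0.35, the highest of the 38 members on this scale, and an adjusted p of 0.0624 with limma. Without irradiated 3 it passed (limma adjusted p = 0.0324, with an adjusted p up to 0.282 over the 18 alternatives). By level, Cdkn1a stood at the 98.4 percentile of genes in irradiated lung and at the 82.5 percentile in control lung. The gene lies on chromosome 17 at 29309953 to 29319696 (GRCm39).

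Ccng1, cyclin G1, a p53 target that feeds back on Mdm2, was at 62.8, 48.5 and 49.1 FPKM in irradiated lung, against 25.5, 31.5 and 26.9 FPKM in control lung. The groups did not overlap, and the log2 change was 0.91 ± 0.13 (limma adjusted p = 0.0615). Gtse1, a microtubule-binding protein of the G2 and S phases that moves p53 out of the nucleus, had low levels of 2.35, 1.82 and 1.24 FPKM against 0.635, 0.609 and 0.393 FPKM in control lung. It was 3.31 times the control mean (log2 change 0.84 ± 0.19, limma adjusted p = 0.104). Its lowest deposited coverage was 2.21 per base, so counting error weighs on its control values.

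The 4 genes of this role with overlapping groups are also induced by growth factors and acute stress. Whether that bears on the overlap was not tested. The antiproliferative gene Btg2 was at 75.8, 109 and 74.4 FPKM in irradiated lung, against 77.8, 59.9 and 152 FPKM in control lung, the widest control spread being set by control 3. Control 3 was also the highest control for the polo-like kinase gene Plk3, at 8.22 FPKM beside 3.49 and 3.58 FPKM in control 1 and 2, within the irradiated range of 5.54 to 8.90 FPKM. Gadd45a, a stress sensor that acts in arrest and repair, ranged from 10.4 to 22.7 FPKM in irradiated lung, with irradiated 2 highest, and from 10.2 to 13.0 FPKM in control lung. Plk2, another polo-like kinase and p53 target, ranged from 16.4 to 31.1 FPKM in irradiated lung and from 25.3 to 34.2 FPKM in control lung. None of these 4 had a limma adjusted p below 0.395.

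**Figure D3:**
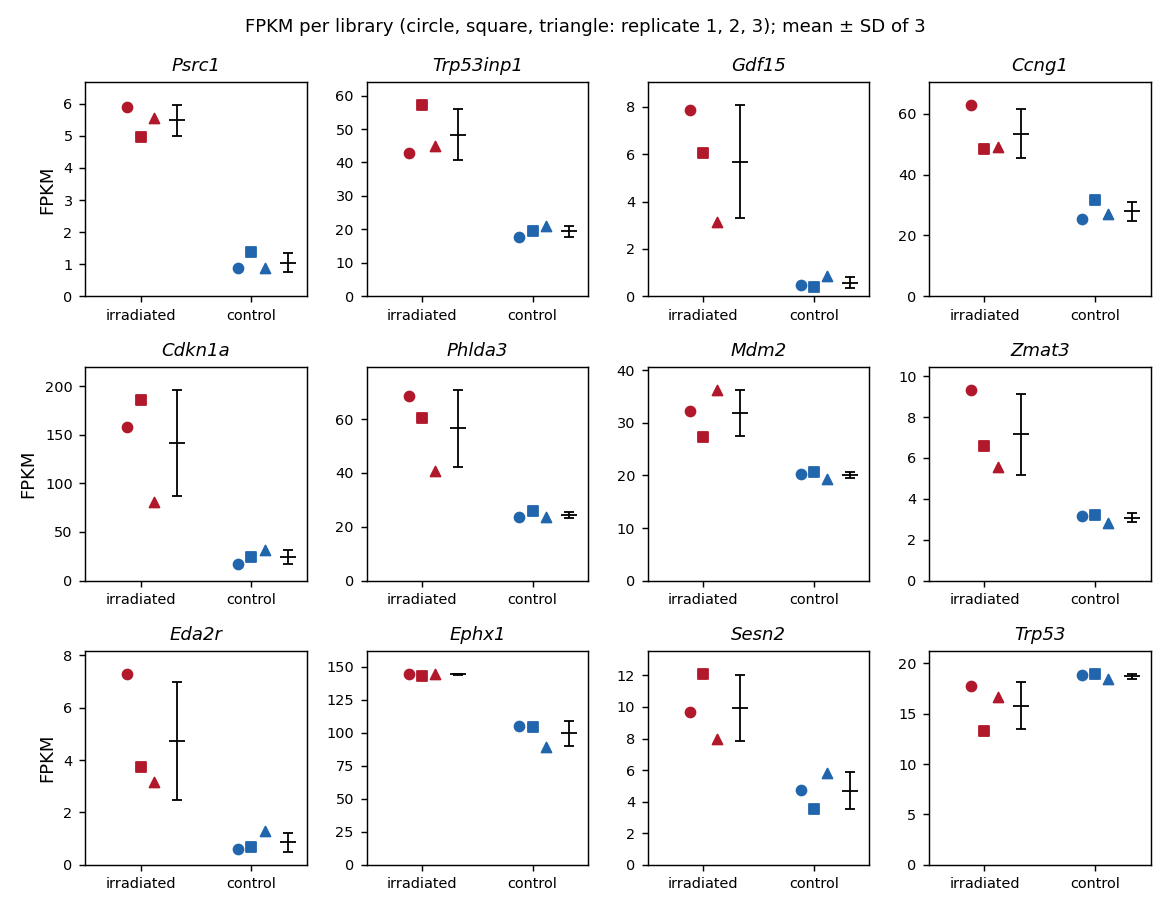
FPKM (y axis, from 0) of the 11 members with a limma adjusted p under 0.1 and of Trp53, in the irradiated (left, red) and control (right, blue) libraries; symbols are replicates 1 to 3 and the black marks give mean ± SD of 3. Ephx1 lies within 143 to 144 FPKM in all irradiated libraries. Among the irradiated libraries, Cdkn1a, Gdf15, Phlda3, Zmat3, Eda2r and Sesn2 are lowest in irradiated 3.

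The 14 genes of the cell death role had log2 changes from 0.00 for Perp, whose sign changed with the libraries left out, to 1.58 for Eda2r, with a median of 0.45 (all genes tested: −0.03). In 9 of them (64.3%) the irradiated libraries lay above the controls, against 9.91% of all genes tested. Eda2r, 1 of these 9, reached the mean required for testing only through the irradiated group. Trp53inp1 was the 1 of the 14 that passed. It encodes a nuclear protein that p53 induces and that in turn helps p53 activate death and autophagy genes. It was at 42.9, 57.1 and 44.9 FPKM in irradiated lung, against 17.8, 19.4 and 21.1 FPKM in control lung, and rose to 2.48 times the control mean (log2 change 1.26 ± 0.13, limma adjusted p = 0.0298). The gene lies on chromosome 4 at 11156441 to 11174379 (GRCm39).

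Phlda3, which blocks the survival kinase Akt at the membrane, was at 68.7, 60.4 and 40.6 FPKM in irradiated 1 to 3, against 23.8, 25.7 and 23.5 FPKM in control 1 to 3. The controls agreed closely and the irradiated libraries did not. Its log2 change was 1.15 ± 0.19 (limma adjusted p = 0.0701). Zmat3, a p53-induced RNA-binding protein that controls splicing and RNA stability, followed the same order of libraries at 9.35, 6.59 and 5.54 FPKM, against 3.17, 3.23 and 2.82 FPKM in control lung (0.98 ± 0.18, limma adjusted p = 0.0793). Aen, an exonuclease that acts in p53-driven death, was at 7.87, 6.37 and 5.21 FPKM, against 2.88, 4.19 and 3.62 FPKM in control lung, and did not pass (limma adjusted p = 0.121).

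Of the death receptors, Eda2r differed most between groups. It is the receptor of ectodysplasin A2, a member of the TNF receptor family. It was at 7.29, 3.74 and 3.16 FPKM in irradiated lung, against 0.596, 0.687 and 1.28 FPKM in control lung, 5.53 times the control mean (log2 change 1.58 ± 0.28, limma adjusted p = 0.0793). The groups were separate, and irradiated 1 stood well above the other irradiated libraries. Tnfrsf10b, the receptor of TRAIL, was at 3.58, 2.19 and 2.38 FPKM, against 2.07, 1.55 and 2.15 FPKM in control lung. These groups were separate by a narrow margin only. Fas, the receptor of Fas ligand, had overlapping groups, with 28.3 to 39.5 FPKM in irradiated and 23.4 to 33.5 FPKM in control lung.

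Among the BCL2 family genes that act at the mitochondrion, Bax and Pmaip1 had separate groups and Bbc3 did not. Bax, the pore-forming effector, was at 62.1, 62.4 and 44.9 FPKM in irradiated 1 to 3, against 35.1, 39.3 and 37.9 FPKM in control 1 to 3 (log2 change 0.57 ± 0.14, limma adjusted p = 0.130). It passed without irradiated 3 (limma adjusted p = 0.041, with values up to 0.417 over the alternatives). Pmaip1, which encodes the activator Noxa, was at 8.33, 10.2 and 7.97 FPKM, against 4.46, 4.20 and 6.66 FPKM in control lung (0.70 ± 0.17, limma adjusted p = 0.125). Bbc3, which encodes Puma, ranged from 5.39 to 8.54 FPKM in irradiated and from 6.76 to 7.11 FPKM in control lung, so its irradiated libraries lay on both sides of the controls. Apaf1, the scaffold of the apoptosome, had separate groups with a small difference, at 5.48, 5.73 and 5.89 FPKM in irradiated and 4.69, 4.29 and 4.85 FPKM in control lung. The scaffold gene Pidd1 (0.976 to 1.31 against 0.531 to 1.11 FPKM in control lung), the autophagy and p53-induced gene Ei24 (36.6 to 43.7 against 34.3 to 36.9 FPKM) and the junction protein gene Perp (11.7 to 15.7 against 10.6 to 20.1 FPKM) overlapped.

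Of 4 genes of DNA repair and nucleotide supply, Polk alone had separate groups, above the controls (25.0%, against 9.91% of all genes tested). Polk, a polymerase that copies past damaged bases, was at 7.38, 6.39 and 7.81 FPKM in irradiated lung, against 5.08, 5.33 and 4.32 FPKM in control lung (log2 change 0.47 ± 0.12, limma adjusted p = 0.127). The damage recognition genes of nucleotide excision repair did not separate. Ddb2 ranged from 4.92 to 8.91 FPKM in irradiated and from 6.58 to 8.01 FPKM in control lung, and Xpc from 9.14 to 14.6 FPKM and from 11.3 to 12.3 FPKM. Rrm2b, the p53-induced subunit of ribonucleotide reductase that supplies building blocks for repair, ranged from 7.97 to 10.8 FPKM in irradiated and from 8.05 to 9.67 FPKM in control lung. In all 3 of these genes irradiated 3 was the highest of the 6 libraries. The median log2 change over the 4 genes was 0.01.

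In the loop that controls p53 itself, Mdm2 and Trp53 stood on opposite sides of their controls. Mdm2 was at 32.2, 27.3 and 36.2 FPKM in irradiated lung, against 20.3, 20.6 and 19.4 FPKM in control lung, 1.59 times the control mean (log2 change 0.63 ± 0.11, limma adjusted p = 0.0793). Trp53 was at 17.7, 13.3 and 16.6 FPKM, against 18.8, 18.9 and 18.4 FPKM in control lung, so each irradiated library lay below each control (−0.24 ± 0.11, limma adjusted p = 0.335). Both genes had tight controls. Ppm1d, the phosphatase Wip1 that removes the activating phosphates from p53, was at 6.18, 6.81 and 6.63 FPKM, against 5.79, 5.63 and 5.58 FPKM in control lung, separate groups with a log2 change of 0.18 ± 0.09. Mdm4, the partner of Mdm2 ranged from 13.0 to 19.8 FPKM in irradiated and from 14.3 to 16.6 FPKM in control lung.

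The genes of metabolism, redox control and secreted stress signals held the largest ratio of group means among the 38. Gdf15, a secreted TGF-beta family cytokine released under cell stress, was at 7.88, 6.04 and 3.15 FPKM in irradiated 1 to 3, against 0.462, 0.409 and 0.838 FPKM in control 1 to 3. That is 9.99 times the control mean, with separate groups and, as for Cdkn1a, the lowest irradiated value in irradiated 3 (log2 change 2.03 ± 0.28, limma adjusted p = 0.0565). Its lowest deposited coverage was 2.31 per base. Gdf15 lies on chromosome 8 at 71082043 to 71085106 (GRCm39).

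Sesn2, a sestrin that restrains the growth kinase mTORC1 and is induced by several stresses, was at 9.70, 12.1 and 7.99 FPKM in irradiated lung, against 4.74, 3.52 and 5.84 FPKM in control lung (0.94 ± 0.20, limma adjusted p = 0.0934). Its relative Sesn1 overlapped, at 16.2 to 23.6 FPKM in irradiated and 16.0 to 17.9 FPKM in control lung. Ephx1, the microsomal epoxide hydrolase of detoxification, varied least among the irradiated libraries relative to its mean, at 144, 143 and 144 FPKM in irradiated lung, against 105, 104 and 88.8 FPKM in control lung (0.53 ± 0.10, limma adjusted p = 0.0826). Ephx1 and Cdkn1a were the most abundant members in irradiated lung, both at the 98.4 percentile of genes tested.

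Ddit4l, an mTORC1 inhibitor related to the stress gene Ddit4, was at 2.66, 1.78 and 2.18 FPKM in irradiated lung, against 1.40, 1.68 and 0.847 FPKM in control lung, separate by a narrow margin. Tigar, which diverts sugar from glycolysis to antioxidant supply, was also separate but by 1.10 times only (3.63, 3.31 and 3.43 against 3.18, 3.16 and 3.11 FPKM in control lung). Fdxr, the mitochondrial ferredoxin reductase, was the second member with all irradiated libraries below the controls, at 3.04, 2.66 and 3.11 FPKM against 3.68, 4.51 and 3.49 FPKM in control lung (−0.31 ± 0.13, limma adjusted p = 0.265). Dcxr, a carbonyl reductase of xylulose metabolism, overlapped at 28.0 to 44.8 FPKM in irradiated and 35.6 to 47.6 FPKM in control lung.

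**Figure D4:**
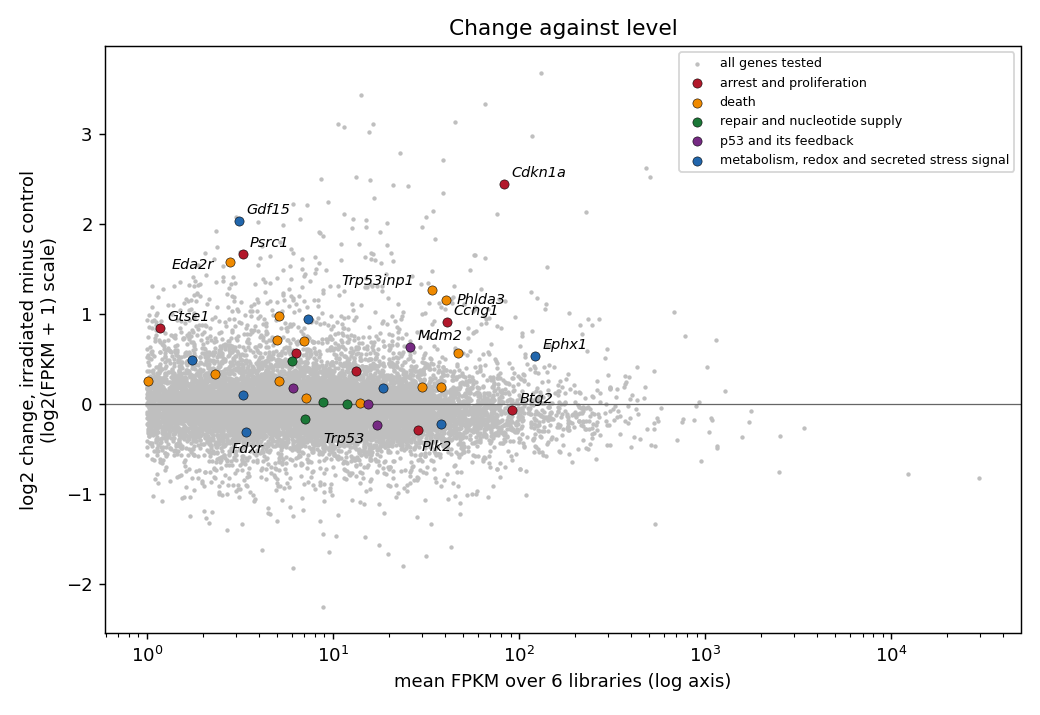
Log2 change from log2(FPKM + 1) (y axis, irradiated minus control) against mean FPKM over the 6 libraries (x axis, log scale) for all genes tested (grey) and the 38 members, coloured by role. The members with the largest changes span levels from Gdf15, Eda2r and Psrc1 near the low end to Cdkn1a near the high end.

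The irradiated libraries did not keep 1 order over the members. Among the 21 members with all irradiated libraries above the controls, irradiated 1 was the highest irradiated library 11 times, irradiated 2 was 6 times and irradiated 3 was 4 times, while irradiated 3 was the lowest 10 times. Over all 38 members the median log2 difference from the control mean was 0.30, 0.31 and 0.34 in irradiated 1 to 3, and −0.01, 0.03 and −0.02 in control 1 to 3. Over all genes tested the same median was −0.00, −0.13 and 0.04 in irradiated 1 to 3, so it too was highest in irradiated 3. Over the 21 members above, which were selected by their separation, the median was 0.93, 0.78 and 0.58 in irradiated 1 to 3, with 0.01, 0.05 and −0.01 in control 1 to 3. For the death genes the medians were 0.64, 0.60 and 0.32 in irradiated 1 to 3, and for the repair genes −0.18, −0.03 and 0.28. The group with p53 and its feedback genes was likewise highest in irradiated 3 (0.02, 0.00 and 0.27). These medians describe the list, whose members were chosen with earlier results known. The coefficient of variation was larger in irradiated than in control lung for 26 of the 38 members, about the share in all genes tested (67.2%).

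Further genes of the pathway were taken from 3 lists, none of which had a member past an adjusted p of 0.05. Of 31 further p53 targets, 27 were tested, and 7 were higher and 4 lower at an unadjusted p under 0.05 with limma, against 7.41% and 10.3% of all genes. The 3 with the smallest p went both ways. Slc19a2, a thiamine transporter, was at 4.76, 4.02 and 5.02 FPKM in irradiated lung, against 2.35, 2.52 and 2.29 FPKM in control lung (log2 change 0.72 ± 0.12, limma adjusted p = 0.0701). Pltp, the phospholipid transfer protein, was at 155, 143 and 154 FPKM, against 226, 233 and 249 FPKM in control lung (−0.65 ± 0.10, limma adjusted p = 0.0615), and Igfbp3, which binds insulin-like growth factors, at 20.5, 16.3 and 20.5 FPKM, against 34.8, 42.6 and 29.0 FPKM in control lung (−0.85 ± 0.16, limma adjusted p = 0.0793). The median of the tested genes of this list was 0.03. Trp53cor1, the long noncoding RNA known as lincRNA-p21 and a p53 target in mouse, was named after its values were seen. It was too low to be tested, at 0.763, 0.622 and 0.416 FPKM in irradiated lung and 0.119, 0.134 and 0.066 FPKM in control lung, with separate groups.

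Among upstream kinases and modifiers of the p53 protein no gene passed. Of 21 genes 19 were tested, and 3 of them were higher at an unadjusted p under 0.05 with limma, none lower, against 7.41% and 10.3% of all genes, with a median log2 change of −0.04 (all genes: −0.03). These were the p53 kinase Hipk2 (13.5, 14.4 and 13.2 FPKM in irradiated lung, against 11.3, 8.34 and 10.2 FPKM in control lung; limma adjusted p = 0.153) and the acetyltransferases Ep300 (11.3 to 14.0 against 8.78 to 11.7 FPKM in control lung) and Crebbp (6.98 to 8.13 against 5.63 to 7.07 FPKM in control lung), whose groups overlapped. The kinase genes Atm and Atr, at 1.35 to 1.98 and 1.98 to 3.48 FPKM in irradiated and 1.60 to 1.97 and 1.98 to 2.94 FPKM in control lung, also overlapped; both were chosen after their values were seen.

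Among mitotic genes that p21 represses no gene passed either. Of 15 genes 12 were tested, 10 with log2 changes above 0, against 44.2% of all genes, and a median of 0.18 (all genes: −0.03). Each of these 10 lay below its control mean in irradiated 3, for example Ube2c at 1.75 against 2.42 FPKM and Foxm1 at 0.747 against 1.04 FPKM. Of the 12, 0 had all irradiated libraries above the controls and 1 had them below, against 9.91% and 14.6% of all genes tested. E2f1, a factor of S phase entry, was lower in irradiated lung and the 1 gene of 12 with an unadjusted p under 0.05, against 10.3% of all genes lower at that threshold (3.19, 2.34 and 2.60 FPKM in irradiated lung, against 3.49, 3.58 and 3.77 FPKM in control lung; limma adjusted p = 0.253). Mki67, the marker of cycling cells, was at 3.49, 2.56 and 1.54 FPKM, against 1.74, 1.82 and 1.57 FPKM in control lung, and Aurkb, a mitotic kinase, at 1.75, 1.55 and 1.07 FPKM, against 1.18, 1.31 and 0.787 FPKM. Mki67 and Aurkb, like Gtse1, were highest in irradiated 1 and lowest in irradiated 3 among the irradiated libraries.

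The libraries held an estimated 5.11 to 10.4 Gb of aligned sequence, irradiated 2 being the deepest. The lung markers Sftpc, Ager and Scgb1a1 were abundant in every library. In bulk tissue fewer cells of a type and less RNA per cell cannot be told apart, and the summed levels of several marker lists differed between the groups. Summed over 8 genes, alveolar type 2 markers ranged from 12000 to 13100 FPKM in irradiated and from 18600 to 20700 FPKM in control lung, and 5 of the 8 had all irradiated libraries below the controls. Macrophage markers, also 8 genes, summed to 313 to 520 FPKM in irradiated and 201 to 266 FPKM in control lung, with 3 of 8 above the controls and 1 below (all genes: 9.91% and 14.6%). That sum rests on Chil3, since without it the sums overlapped, at 79.8 to 138 FPKM in irradiated and 75.0 to 91.2 FPKM in control lung. Lower sums without overlap were found for mesothelium (36.8 to 88.1 against 100 to 196 FPKM in control lung, 3 of 4 genes below), NK and T cells (37.3 to 48.2 against 54.8 to 66.0 FPKM, 3 of 7 below), alveolar type 1 cells (1860 to 2110 against 2170 to 2530 FPKM, 2 of 6 below) and club and ciliated cells (18100 to 28900 against 32500 to 46500 FPKM, 1 of 5 below). In each of the last 3 lists the other 4 genes overlapped, so these sums do not describe every gene in them. Cd3e, Cd3g, Trbc2 and Cd8a were at 1.25, 1.08, 1.09 and 1.02 times the control mean. The club and ciliated sum was mostly Scgb1a1 (16300 to 26700 against 31000 to 44200 FPKM), while Scgb3a2 and Foxj1 were at 1.25 times and Cyp2f2 at 0.651 times the control mean. Endothelial sums overlapped (515 to 692 against 626 to 799 FPKM in control lung), with 3 of 7 genes below the controls and 0 above. Among these 3, Aplnr was at 0.163 times the control mean (limma adjusted p = 0.0298). Fibroblast sums overlapped too (202 to 359 against 286 to 359 FPKM), with 2 of 6 genes below and 1 above. Scn7a, 1 of the 2 below, was at 0.574 times the control mean (limma adjusted p = 0.0447). The sum of 8 neutrophil markers was 223, 4820 and 1430 FPKM in irradiated 1 to 3 and 165, 77.0 and 507 FPKM in control 1 to 3, and red cell markers were highest in irradiated 2 (5910 FPKM, against 1270 to 1590 FPKM in control lung). Heart muscle and fat markers differed by library, with the lowest sums in irradiated 2 (15.1 and 0.217 FPKM) and the highest in control 2 (396 and 260.0 FPKM). None of the markers in these lists was at 0 throughout, and their part in the changes of the p53 genes was not tested. With both libraries numbered 2 left out, 24 members had the remaining irradiated libraries above the remaining controls, and no member passed. With 2 libraries a group such an order arises more easily than with 3. The share over all genes was not computed for it, so this count cannot be set beside that of all 6 libraries.

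The 2 calls depended on the libraries, while the changes stayed close in size. With limma neither Psrc1 nor Trp53inp1 passed without control 1, control 2, control 3 or irradiated 2 (0 members). At an unadjusted p under 0.05 with limma these fits held 16 to 18 members, and 1484 to 1994 of the 13872 to 13953 genes tested. In these 4 fits the log2 change was 1.61, 1.78, 1.60 and 1.72 for Psrc1 and 1.20, 1.26, 1.32 and 1.14 for Trp53inp1. In turn 7 members passed without irradiated 3, namely Cdkn1a, Psrc1, Bax, Zmat3, Phlda3, Trp53inp1 and Gdf15. Calls rose over all genes in that fit, to 118 of 13829 genes tested (49 higher, 69 lower), from 25 of 13908 with all libraries. The sign of the change was the same in every one of 18 alternatives that gave a value for 30 members, and the exceptions were Btg2, Plk2, Bbc3, Perp, Ddb2, Xpc, Rrm2b and Mdm4, whose log2 changes lay between −0.29 and 0.07. Alternatives that changed only the filter, the limma settings or the replicate block leave the log2 change as it was. Only the others, on pseudocount, scaling, libraries and assembled loci, could change a sign. Plk3, Apaf1, Ddb2 and Sesn1 overlap an expressed gene on the other strand, and as the strand setting is not given in the sources used here, reads of either gene could count for the other.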

How the data were processed

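The protocols in the labels state TRIzol extraction, polyA libraries from a dual-mode mRNA kit and DNBSEQ-T7 sequencing. Among tools and builds, the submitters' processing notes list fastp, DESeq2, STAR 2.7.6a and GRCm39, without saying what each was used for. How the gene tables were made, and their strand setting, is not stated in the material analysed. Each deposited table gives coverage, FPKM and TPM per gene, per the file headers. The FPKM deposited by the authors were analysed. Deposited coverage (signal per base) served to give the lowest coverage of single members and to estimate depth. Depth came from its ratio to FPKM, which was constant in 27.7% to 30.5% of genes. The tables also hold 22644 to 24988 assembled loci without a name that cover many of the same genes again, and the TPM column, whose sum includes them, was not used. No counting intervals are given, since the files hold no counts.

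FPKM of rows with a gene name were summed per gene, and log2(FPKM + 1) was tested with limma 3.58.1 in R 4.3.3 (trend and robust variance, group as the only term) for the 13908 genes whose mean reached 1 FPKM. An adjusted p (Benjamini-Hochberg, over all genes tested) under 0.05 was called. Errors of log2 changes are standard errors. In simulated data with the levels and spread of the real genes, limma called 36.6% of 1.5-fold, 74.1% of 2-fold and 91.7% of 4-fold changes. Of the calls, 4.39% were false. The noise was normal and changes were placed only in genes with a mean log2(FPKM + 1) above 2. Lower members, among them Psrc1, Gtse1, Eda2r and Gdf15, were therefore not covered. All 38 members are named, with library values for those whose groups do not overlap, and so are the 3 genes with the smallest p in each further list. Members, lists and thresholds were chosen with earlier results of these data known. Alternatives changed the pseudocount, filter, scaling, limma settings, replicate block and libraries. The files name sequences by accession, and its chromosome was taken as the one where a RefSeq table places most of the symbols on it. Promoter sequences are RefSeq's (GRCm38.p6), matched by symbol, and were not joined to the GRCm39 coordinates. Python 3.11.15, pandas 2.3.3 and matplotlib 3.10.9 were used.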

Additional observations from a re-analysis of the deposited data

How the results depend on the processing

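With limma 25 genes passed in all, 9 higher and 16 lower, and 2 of the 38 members. Without a filter on low values no gene passed (3531 at an unadjusted p under 0.05, 19 of them members), and with a minimum mean of 5 FPKM 38 genes and 1 member, Trp53inp1, did. Median-ratio scaling gave 11 genes (4 higher, 7 lower) and 1 member, Psrc1, upper-quartile scaling 12 genes (4 higher, 8 lower) and 1 member, Psrc1, and common-sum scaling 13 genes (7 higher, 6 lower) and both members. Common-sum scaling moved the median of all genes to 0.08, from −0.03. Leaving out 1 library gave 0 to 118 genes and 0 to 7 members. No gene passed without control 1 (1910 at an unadjusted p under 0.05) or control 3 (1645), 1 without control 2, 3 without irradiated 2 and 101 without irradiated 1. Leaving out both libraries numbered 2, an alternative chosen after seeing the data like the use of assembled loci, gave 9 genes and 0 members (18 at an unadjusted p under 0.05).

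The median log2 change over the members, 0.35, was 0.47 and 0.39 with pseudocounts of 0.1 and 0.5, 0.26 for the 29 members with a mean of 5 FPKM, 0.46 with common-sum scaling and 0.31 to 0.42 with 1 library left out. Members with all irradiated libraries above the controls numbered 18 (of 33, assembled loci) to 25 over the alternatives that bear on them. Separation arises more easily where libraries are left out, so the counts from those fits are not comparable with the others.

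Changes of sign were confined to 8 members over the alternatives that could change the log2 change. With 1 library left out the log2 change ranged from −0.35 to 0.31 for Btg2, −0.43 to 0.01 for Plk2, −0.04 to 0.25 for Bbc3, −0.16 to 0.27 for Perp, −0.15 to 0.16 for Xpc, −0.11 to 0.09 for Rrm2b and −0.18 to 0.11 for Mdm4. Xpc and Mdm4 were both at 0.02 with median-ratio, 0.00 with upper-quartile and 0.12 with common-sum scaling, and Btg2 was at 0.06 with common-sum scaling. Mdm4 was at 0.02 with assembled loci. Without both libraries numbered 2, Bbc3 was at −0.01, Ddb2 at 0.05 and Mdm4 at 0.10. The cause was not tested.

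Libraries of the same number did not deviate together (correlations of −0.17, −0.54 and −0.28 for pairs 1 to 3). The labels state no pairing, and correlations from so few libraries cannot exclude one. With the replicate block no gene and 0 members passed with limma (1623 genes and 16 members at an unadjusted p under 0.05). Low coverage limits Gtse1 and Gdf15 most, and 3 libraries a group limit all members.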
